A study of Bos taurus with 147 samples.

Results

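Gene expression in longissimus dorsi, the long back muscle of cattle, was followed over 3 sampling times, T1, T2 and T3, in Japanese Black and Holstein animals on 6 of the 147 two-colour cDNA arrays of the series. The 6 arrays were chosen as those on which both dyes carried muscle RNA of the same breed at different times. Each breed contributed 3 of them, hybridised as T2 over T1, T3 over T2 and T1 over T3, with the first-named sample in Cy5 and the second in Cy3, so that each breed formed a closed loop of 3 links. No allele or treatment is given for either breed. The days behind T1, T2 and T3, the ages of the cattle, and how many animals stood behind each RNA sample are not given in the sources used here. Each link was measured once per breed, and p-values below therefore measure the spread between these 6 arrays, in which breed, animal and hybridisation cannot be told apart.

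Japanese Black cattle are known for depositing fat between their muscle fibers, whereas Holstein is a dairy breed whose steers are also fattened for beef. Fat in muscle is stored in adipocytes lying among the fibers. In these cells ATP citrate lyase supplies acetyl-CoA, from which acetyl-CoA carboxylase and fatty acid synthase build fatty acids, and fatty acids are carried with binding proteins such as FABP4. The fibers themselves hold the contractile proteins, the glycolytic enzymes and the calcium store of the sarcoplasmic reticulum.

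On each array 19200 printed elements gave a log2 ratio of Cy5 to Cy3, and all values below are on that log2 scale. Printed elements of a gene were averaged, and each array was centred on its median. A value of 1 for T3 over T1 stands for a signal 2-fold higher at T3 relative to the median element. That Cy5 stands in the numerator is only likely, from the dyes and the order of names in the array labels, and were it the reverse every sign below would turn. Elements at the ratio limit of the table were treated as missing. The array of Japanese Black T2 over T1 stood apart from the others, with an uncentred median of 1.24 against -0.16 to 0.04, and 1089 elements at the limit against 146 to 343. Neighbouring printed copies of the same clone correlated at 0.447 to 0.630 on the 6 arrays, and at 0.557 to 0.925 on the 12 arrays of the series that compare the 2 breeds at the same time. Of 8417 features, 4194 had a value on all 6 arrays, of which 655 were named genes and 3539 were clones without a gene name.

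The loops of both breeds gave related values for T3 over T1 (Pearson r = 0.39 across 4194 features, 69.2% with the same sign) and for T2 over T1 (r = 0.33, 61.7%), but hardly for T3 over T2 (r = 0.05, 51.3%). The features are not independent replicates, and the dye offset of the 3 links was itself shared between the loops (r = 0.49). The highest positive agreement between single arrays of the 2 breeds was that of the 2 arrays of T1 over T3 (r = 0.53). With the breeds as replicates, limma found 0 features past an adjusted p of 0.05 for T3 over T1 (smallest adjusted p = 0.22, 651 features with an unadjusted p under 0.05), 0 for T2 over T1 (0.082, 797 features) and 0 for T3 over T2 (0.52, 317 features). The test of any change over the 3 times also passed 0 features (smallest adjusted p = 0.23, 674 with an unadjusted p under 0.05).

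Features were therefore described by size: a value is called higher or lower by size where both loops gave the same direction and at least 0.5 in each. By this rule 508 features (12.1%) were higher at T3 than at T1 and 568 (13.5%) lower, among them 87 (13.3%) and 64 (9.77%) of the 655 named genes. For T2 over T1 the named genes counted 100 higher (15.3%) and 57 lower (8.70%), and for T3 over T2 they counted 37 (5.65%) and 53 (8.09%). The plot of both breeds' values sets the named groups against all features.

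**Figure D1:**
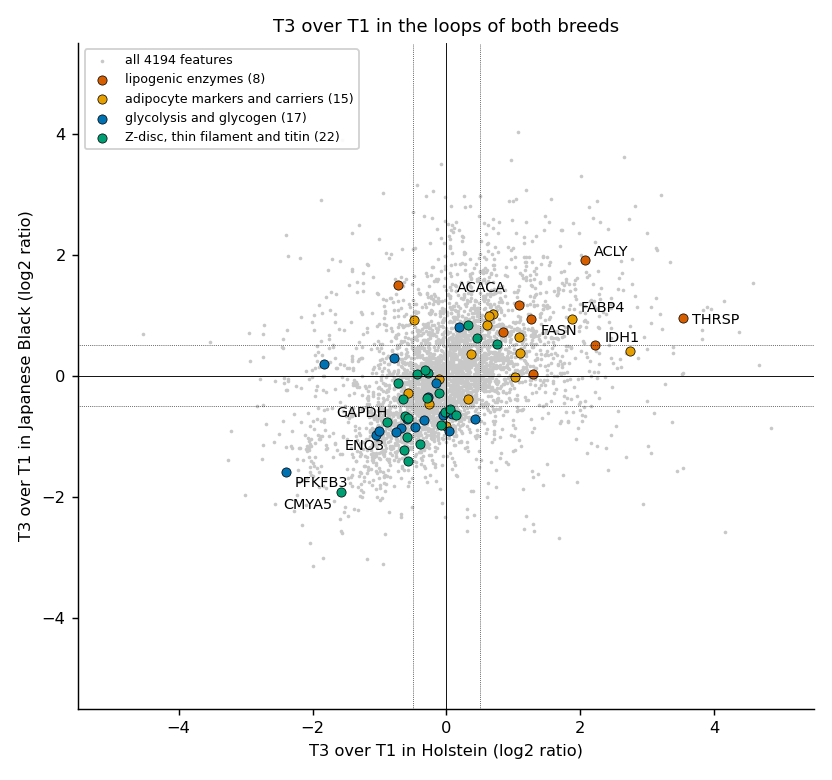
T3 over T1 in the Holstein loop (horizontal axis, log2 ratio) and in the Japanese Black loop (vertical axis, log2 ratio), with 1 point per feature, 4 gene lists in colour and dotted lines at -0.5 and 0.5. Of the 8 lipogenic enzymes 6 lie beyond 0.5 in both breeds, while 6 of the 17 glycolytic genes lie beyond -0.5 in both.

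The enzymes of fatty acid and fat synthesis read highest at T3 of all 25 gene lists with at least 3 measured genes. Their median for T3 over T1 was 1.12 over 8 measured genes of 28 listed, with 0.95 in the Japanese Black loop and 1.28 in the Holstein loop, beside a median of -0.02 over all features and 0.08 over named genes. By size 6 of the 8 were higher at T3 and 0 lower, where 13.3% of named genes were higher. None passed the adjusted test, and 5 of the 8 had an unadjusted p under 0.05, as did 8.09% of named genes on the higher side. The median lay between 0.96 and 1.30 with each array left out in turn.

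ACLY, the ATP citrate lyase that supplies acetyl-CoA for fatty acid synthesis, read 0.88, -0.24 and -2.55 on the Japanese Black arrays of T2 over T1, T3 over T2 and T1 over T3, and 0.18, 0.81 and -2.62 on the Holstein arrays in the same order. On both arrays with T1 in Cy5 the T1 signal was thus far below that of T3, but these readings hold the dye offset (-0.64 in Japanese Black and -0.55 in Holstein). The other 2 links together gave a T3 over T1 of 0.64 and 0.98. The fitted T3 over T1 was 2.00 (SE 0.36, 1.91 and 2.08 in the Japanese Black and Holstein loops, limma adjusted p = 0.22). ACACA, the acetyl-CoA carboxylase that makes malonyl-CoA, read 0.41, -0.01 and -1.55 in Japanese Black and 0.03, -0.36 and -1.78 in Holstein, giving 1.12 (SE 0.32). FASN, which assembles the fatty acid chain, read 1.88, -1.67 and -1.32 in Japanese Black and 0.07, -0.65 and -2.20 in Holstein. Its fitted T3 over T1 was 1.11 (SE 0.46), and its T2 over T1 was 1.62 (SE 0.46). For each of these 3 enzymes T1 had the lowest fitted level in both breeds.

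THRSP, a nuclear protein of lipogenic tissue that responds to thyroid hormone, read 0.25, 0.00 and -1.29 in Japanese Black and 2.69, 0.25 and -3.83 in Holstein. The sign was shared, but the T3 over T1 value was 0.95 in the Japanese Black loop and 3.54 in the Holstein loop. IDH1, the cytosolic isocitrate dehydrogenase that supplies NADPH, showed the same order of breeds with 0.50 and 2.23. DGAT1, which catalyses the last step of triacylglycerol synthesis, gave 0.72 and 0.84. The 2 members outside the size rule were SREBF1, a transcription factor of lipid synthesis (0.03 and 1.30), and DGAT2 (1.49 and -0.72), whose loops opposed each other. The difference between the breeds passed the test for none of these genes (adjusted p = 0.51 to 1.00 for T3 over T1 in Japanese Black minus Holstein).

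Adipocyte markers and fatty acid carriers had a lower median of 0.50 over 15 measured genes of 26 listed (0.37 in Japanese Black, 0.61 in Holstein), with 5 higher at T3 by size and 0 lower, where 13.3% and 9.77% of named genes were. Above 0 in both loops were 8 of the 15, and 4 were below 0 in both. FABP4, the fatty acid binding protein of adipocytes, was printed on 78 elements and read 0.56, 0.36 and -0.94 in Japanese Black and 1.43, 0.17 and -2.02 in Holstein. All 6 values were on the side of a higher later signal. The fitted T3 over T1 was 1.41 (SE 0.37, 2.65-fold, limma adjusted p = 0.23). The lipid droplet protein PLIN1 gave 0.86 (SE 0.40), the adipocyte protein ADIRF 0.81 (SE 0.33), the complement protease CFD 0.72 (SE 0.52) and the caveolar protein CAVIN1 0.86 (SE 0.55). For ADIRF the T1 over T3 arrays put T3 above T1 (1.71 in Japanese Black and 1.59 in Holstein). The other 2 links together put it below T1 (-0.46 and -1.27). For FABP4, PLIN1 and ADIPOQ the breed arrays gave a time change that differed between the breeds, with values given at the end.

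The hormones ADIPOQ and LEP lay outside the size rule, ADIPOQ (adiponectin) with 0.37 in Japanese Black and 1.10 in Holstein, and LEP (leptin) with 0.37 in both. FABP5, another fatty acid binding protein, ran the other way with -0.29 and -0.57. Of the 6 defining adipocyte markers, the 5 measured ones (ADIPOQ, LEP, PLIN1, FABP4 and CFD) were all above 0 in both loops, from 0.37 to 1.41, as were 37.9% of named genes. Over the 2 LEP elements read on all 6 arrays, however, the mean was -0.085, with both below 0. Ratios carry no absolute level, so the tissue label could not be checked against marker levels, and in whole muscle more adipocytes and more RNA per adipocyte cannot be told apart. The adipocyte list depended on the array that stood apart, with a median of 0.30 without it, and of 0.15 over the 11 genes with an element read on all 6 arrays.

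**Figure D2:**
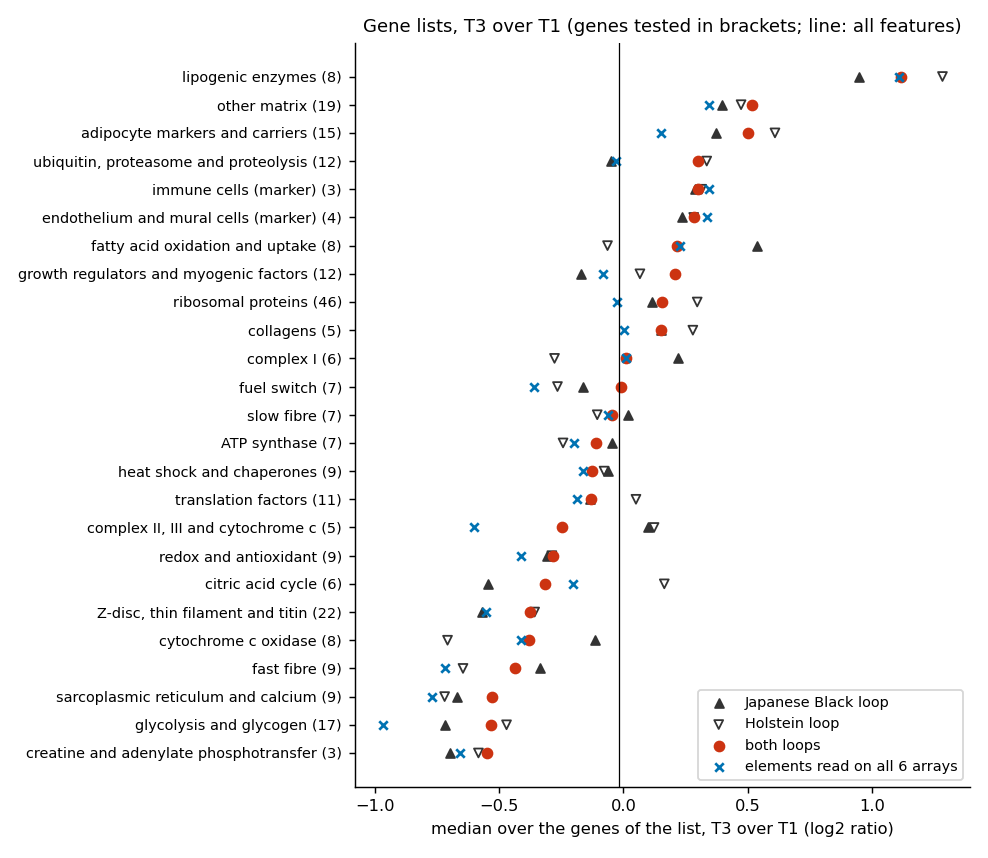
Median T3 over T1 (horizontal axis, log2 ratio) of each gene list with at least 3 measured genes: filled triangles for the Japanese Black loop, open triangles for the Holstein loop, red circles for both loops and blue crosses for the means of elements read on all 6 arrays. The lipogenic enzymes lie apart at 1.12, and the lists of phosphotransfer, glycolysis, sarcoplasmic reticulum and fast fiber genes lie lowest, at -0.55 to -0.44.

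Genes of muscle energy supply and contraction made up the lower end. The median of 17 glycolytic and glycogen genes of 35 listed was -0.53 (-0.72 in Japanese Black and -0.47 in Holstein), with 6 lower at T3 by size and 0 higher, against 9.77% lower among named genes. PFKFB3, which makes the activator of phosphofructokinase, had the largest difference. It read -1.51, -0.56 and 1.35 in Japanese Black and -0.99, -1.51 and 2.34 in Holstein, with T1 above T2 and T2 above T3 on every array. The fitted T3 over T1 was -2.00 (SE 0.38, limma adjusted p = 0.22).

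GAPDH, the glyceraldehyde phosphate dehydrogenase printed on 84 elements, read -1.16, 0.12 and 0.77 in Japanese Black and -0.39, 0.04 and 0.84 in Holstein. Its value was -0.77 (SE 0.33) for T3 over T1 and 0.04 (SE 0.33) for T3 over T2. The other members lower by size were ENO3, the muscle enolase, at -0.84 (SE 0.31), the isomerases TPI1 at -0.96 (SE 0.31) and GPI at -1.02 (SE 0.31), and the aldolase ALDOA at -0.65 (SE 0.32). LDHB, the heart form of lactate dehydrogenase, was above 0 in both loops (0.80 and 0.19), the 1 glycolytic gene of which this held. PKM, pyruvate kinase, had opposite signs in the loops as the average over all its elements (0.19 in Japanese Black and -1.84 in Holstein). Its 10 elements read on every array, however, were all below 0 for T3 over T1 with the loops combined (mean -1.2, SD 0.26, highest -0.86). Creatine kinase CKM gave -0.55 (SE 0.31) and the mitochondrial ADP/ATP carrier SLC25A4 -0.85 (SE 0.33), and both were lower by size, as 2 of the 3 measured phosphotransfer genes.

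Among 9 fast fiber genes of 16 listed the median was -0.44 (-0.34 and -0.65 in Japanese Black and Holstein). By size 3 were lower at T3 and 0 higher, where 9.77% and 13.3% of named genes were. The 3 were the fast actinin ACTN3 at -1.27 (SE 0.33), the fast myosin heavy chain MYH1 at -0.88 (SE 0.35) and the myosin light chain MYL1 at -0.70 (SE 0.33). The 7 slow fiber genes had a median of -0.05, which lay between -0.06 and 0.12 with each array left out in turn and was 0.08 without the array that stood apart. The Z-disc and thin filament list had a median of -0.37 over 22 genes of 44, with 7 lower by size and 1 higher, where 9.77% and 13.3% of named genes were. CMYA5, a Z-disc protein that binds titin and actinin, read -1.27, -0.90 and 1.80 in Japanese Black and -0.99, -0.02 and 1.85 in Holstein. Each of its 6 values put the earlier time above the later one, and the fitted T3 over T1 was -1.75 (SE 0.34, limma adjusted p = 0.22).

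Skeletal actin ACTA1, with 174 elements the most often printed gene, read -1.17, 0.37 and 0.59 in Japanese Black and -0.57, 0.29 and 0.79 in Holstein, and its T3 over T1 was -0.64 (SE 0.32). ACTN2 (-0.63), the Z-disc protein MYOT (-0.80), the stress-responsive repeat protein ANKRD1 (-0.93) and the kelch protein KLHL41 (-0.99) were also lower by size. The exception was CRYAB, a small heat shock protein that guards desmin and titin. It read 0.24, 1.04 and -0.14 in Japanese Black and 0.02, 1.14 and -0.56 in Holstein, all on the side of a higher later signal, with a fitted T3 over T1 of 0.64 (SE 0.31). In the sarcoplasmic reticulum list (median -0.53 over 9 genes of 22), the slow calcium pump ATP2A2 (-1.06, SE 0.36), the junctional protein JPH1 (-1.09, SE 0.32), the luminal calcium-binding SRL (-0.82, SE 0.33) and calmodulin CALM3 (-1.18, SE 0.39) were lower by size, as were 9.77% of named genes. JPH1 differed between T2 and T3 (T3 over T2 -1.32) rather than between T1 and T2 (0.23).

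The 7 measured of 10 defining muscle markers ranged from -0.88 to -0.04 and 6 of them were below 0 in both loops, as were 28.4% of named genes. The 5 adipocyte markers were all above 0, LEP only as the average over all its elements. The part of a changed mixture of cells in these values was not tested. A ratio on a centred array is relative to the median of its elements, so these values show unequal change and not the change of total RNA. Without centring, the median of all features for T3 over T1 moved from -0.02 to 0.26, and the glycolytic median moved from -0.53 to -0.26.

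**Figure D3:**
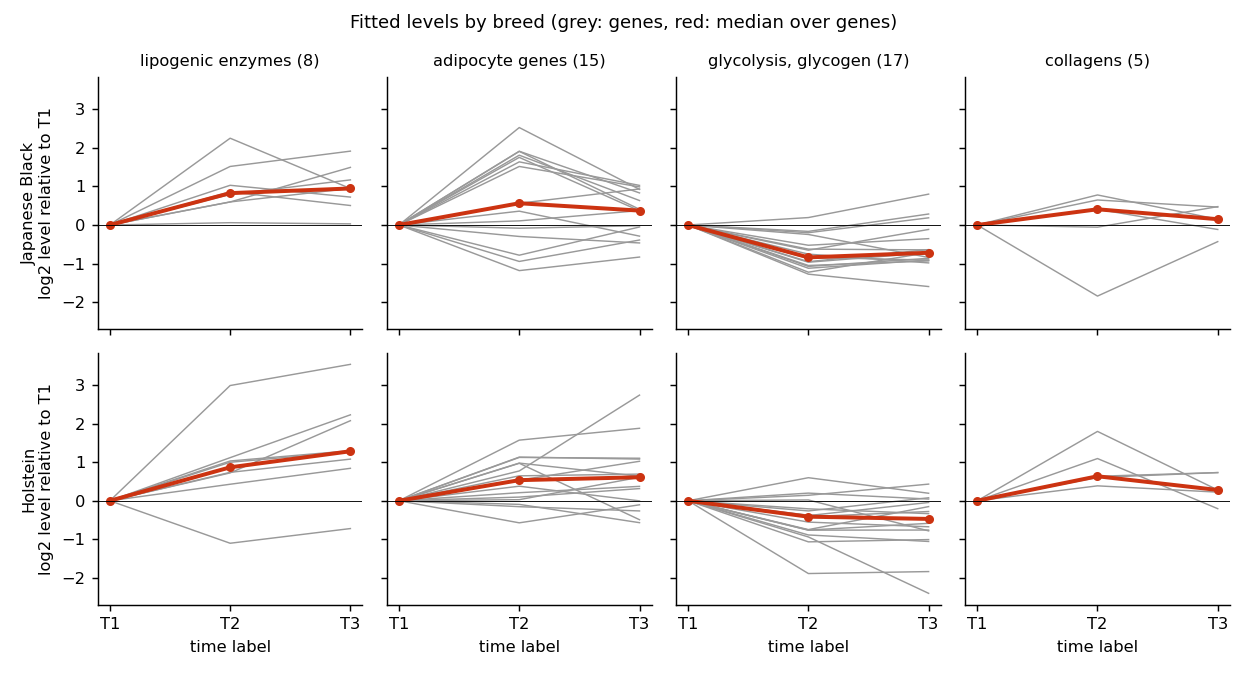
Fitted log2 levels at T1, T2 and T3 relative to T1 (vertical axis) in Japanese Black (upper row) and Holstein (lower row), with 1 grey line per gene and the median over genes in red. The lipogenic medians reach 0.83 and 0.87 at T2 and the glycolytic medians -0.84 and -0.41, and the collagen medians are higher at T2 (0.41 and 0.63) than at T3 (0.15 and 0.28).

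For the lipid and glycolytic lists the medians were farther from 0 for T2 over T1 than for T3 over T2. The comparisons share samples, so their values are set side by side only. The lipogenic enzymes had a median of 0.88 for T2 over T1 (5 of 8 higher by size, against 15.3% of named genes) and of 0.37 for T3 over T2 (0 higher), the latter 0.11 to 0.38 with each array left out and 0.24 without the array that stood apart. The adipocyte list had 0.97 for T2 over T1 (6 higher and 1 lower, against 15.3% and 8.70% of named genes) and -0.14 for T3 over T2. Without the array that stood apart its T2 over T1 median was 0.46. The glycolytic list had -0.61 for T2 over T1 (7 lower, against 8.70% of named genes) and 0.10 for T3 over T2, or 0.01 without that array.

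Of the 5 measured collagens, the 3 fibrillar chains COL1A1, COL1A2 and COL3A1 had their highest fitted level at T2. The other two, the basement membrane chain COL4A1 and the microfibril chain COL6A2, were above 0 for T3 over T2 in both loops. COL1A1, the alpha 1 chain of type I collagen printed on 70 elements, read 0.68, -0.15 and -0.43 in Japanese Black and 1.70, -1.61 and -0.38 in Holstein. It was higher at T2 than at T1 in both loops (0.65 and 1.80), with a T3 over T1 of 0.37 (SE 0.41). COL1A2, its partner chain, gave 0.94 (SE 0.33) for T2 over T1 and -0.96 (SE 0.33) for T3 over T2, and was the 1 collagen lower at T3 than at T2 by size. COL3A1, the type III chain of 62 elements, stayed within 0.41 of T1 in both loops at both later times. COL4A1 read -1.84 for T2 over T1 in Japanese Black and 0.63 in Holstein, and its fitted T3 over T2 was 0.75 (SE 0.59). COL6A2 was highest at T3, with 0.60 (SE 0.35) for T3 over T1. The median of the 5 for T3 over T1 was 0.15, and 0.54 without the array that stood apart. A few contractile and cytoskeletal genes, picked after their values were seen, had T2 as the lowest time: the muscle LIM protein CSRP3 gave -1.22 (SE 0.31) for T2 over T1 and 1.02 (SE 0.31) for T3 over T2, desmin (DES) -0.85 and 0.74 (SE 0.32 each), and the slow troponin TNNT1 -0.81 and 0.77 (SE 0.33 each). For T3 over T2, 3 of 22 Z-disc, 1 of 7 slow fiber and 0 of 9 fast fiber genes were higher by size, against 5.65% of named genes. Lower by size were 1, 1 and 0, against 8.09%.

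Other matrix genes had a median of 0.52 for T3 over T1 over 19 genes of 56, with 4 higher by size and 3 lower, where 13.3% and 9.77% of named genes were. The 4 were thrombospondin 2 (THBS2), the secreted growth regulator CCN2, ECM2 and the membrane protease MMP14, and the 3 were the proteoglycan LUM, the protease CTSK and P4HB, a subunit of prolyl hydroxylase. CCN2 read 3.33, 1.46 and -0.05 in Japanese Black and 2.61, 0.35 and -0.31 in Holstein, with a fitted value of 1.41 (SE 0.37) for T3 over T1 and of 1.74 (SE 0.37) for T2 over T1. THBS2 differed in size between the loops, with 1.53 and 4.59. FN1 (fibronectin, 0.64) and SPARC (0.59) were above 0 in both loops without reaching the size rule.

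**Figure D4:**
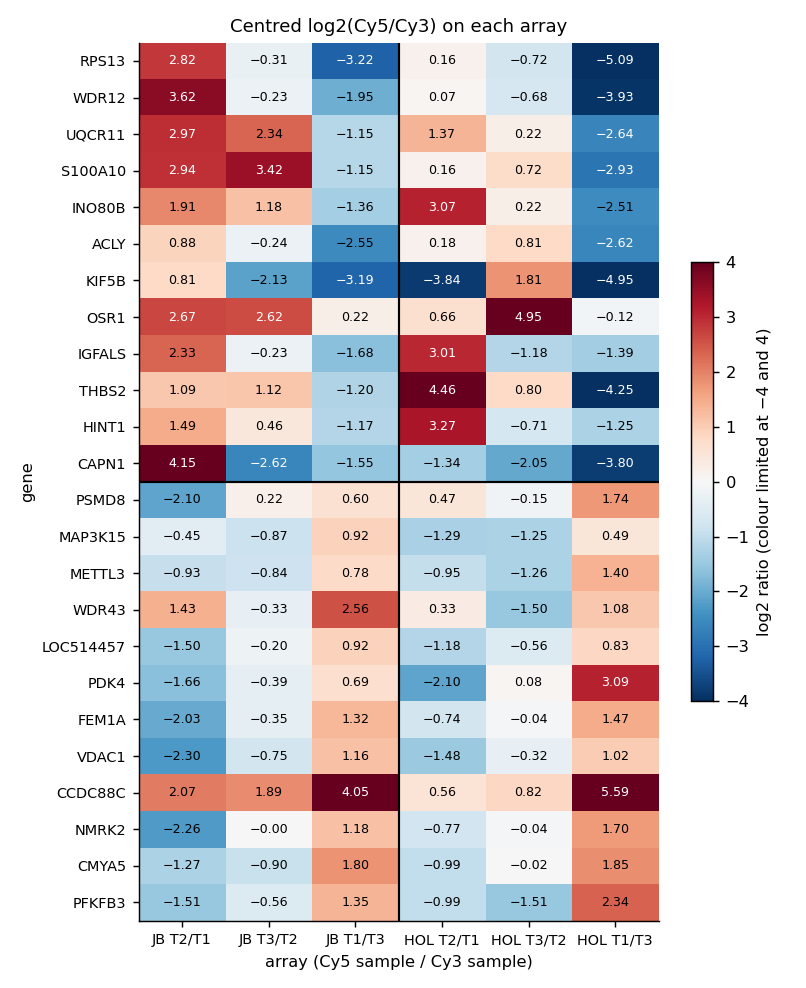
Centred log2 ratio of Cy5 over Cy3 on each of the 6 arrays (columns) for the 12 named genes highest (upper rows) and the 12 lowest (lower rows) at T3 over T1 by the smaller of the 2 breed values. Values on the T1 over T3 arrays are negative for 11 of the upper genes in both breeds, and positive for all 12 lower genes in both. These arrays weigh most in the breed values used for the ranking, so their signs are largely set by it.

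Ranked by the smaller of the 2 breed values, the named genes highest at T3 over T1 were RPS13 (3.09), WDR12 (2.42), UQCR11 (2.41), S100A10 (2.57), INO80B (2.35), ACLY (2.00), KIF5B (2.15), OSR1 (1.79), IGFALS (1.68), THBS2 (3.06), HINT1 (1.56) and CAPN1 (1.47). They include a ribosomal protein (RPS13), a small subunit of respiratory complex III (UQCR11), the annexin ligand S100A10, the kinesin KIF5B and the protease calpain 1 (CAPN1). Their SEs ran from 0.36 to 1.02. For KIF5B the T1 over T3 arrays put T3 above T1 (3.2 in Japanese Black and 4.9 in Holstein). The other 2 links together put it below T1 (-1.3 and -2.0). INO80B, a chromatin remodelling subunit, was steady between its 2 elements (SD 0.07), reading 1.91, 1.18 and -1.36 in Japanese Black and 3.07, 0.22 and -2.51 in Holstein. Its T3 over T1 in Japanese Black minus Holstein was -2.64 on the breed arrays (SE 0.61, limma adjusted p = 0.26), against -0.84 (SE 1.07) in the loops. CAPN1 was not steady across arrays: it read 4.15 for T2 over T1 in Japanese Black and -1.34 in Holstein.

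Completeness differed between the 2 ends. Of the 87 named genes higher by size, 65 (74.7%) had at least 1 element read on all 6 arrays, against 61 of the 64 lower ones (95.3%). RPS13, WDR12, UQCR11, S100A10, KIF5B, IGFALS and HINT1 had none, so that their averages drew on different elements on different arrays. The same held for ADIRF, CCN2 and IGFBP3. The 46 ribosomal protein genes as a whole had a median of 0.15, and of -0.03 over the 41 with such an element. RPS13 and RPL32 (1.52), which lack one, were 2 of the 3 that were higher by size.

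The lowest named genes were PFKFB3 (-2.00), CMYA5 (-1.75), NMRK2 (-1.47), CCDC88C (-2.32), VDAC1 (-1.54), FEM1A (-1.45), PDK4 (-1.94), LOC514457 (-1.16), WDR43 (-1.22), METTL3 (-1.39), MAP3K15 (-1.11) and PSMD8 (-1.04). Among them are NMRK2, a muscle kinase of NAD synthesis, VDAC1, the outer channel of mitochondria, METTL3, which methylates RNA, and PSMD8, a proteasome subunit. LOC514457 is a pseudogene in the reference table. VDAC1 read -2.30, -0.75 and 1.16 in Japanese Black and -1.48, -0.32 and 1.02 in Holstein, so that T1 was highest and T3 lowest in both breeds. NMRK2 read -2.26, -0.00 and 1.18 in Japanese Black and -0.77, -0.04 and 1.70 in Holstein. Both arrays of T3 over T2 thus read within 0.04 of 0, but these readings hold the dye offset. With the dye cancelled, the loops had opposite signs for T3 over T2.

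PDK4, the kinase that shuts off pyruvate dehydrogenase when fatty acids are burned, read -1.66, -0.39 and 0.69 in Japanese Black and -2.10, 0.08 and 3.09 in Holstein. T1 was its highest time in both breeds, with a fitted T3 over T1 of -1.94 (SE 0.49, -1.14 and -2.74 by loop). TXNIP, the thioredoxin-binding brake on glucose uptake, read -0.75, -0.13 and 0.73 in Japanese Black and -0.15, -0.31 and 0.99 in Holstein, all 6 on the side of a lower later signal, with a fitted value of -0.80 (SE 0.32). The uncoupling protein UCP2, in contrast, gave 1.00 (SE 0.40), and the insulin-regulated glucose transporter SLC2A4 gave -0.01 (SE 0.33). The 7 genes of the fuel list thus held 1 higher and 2 lower by size, where 13.3% and 9.77% of named genes were. Their median was -0.01.

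Growth regulators and myogenic factors were split in the same way, 3 higher and 2 lower by size of 12, where 13.3% and 9.77% of named genes were. IGFBP3, a carrier of insulin-like growth factors, gave 1.23 (SE 0.35), IGF1 itself 1.03 (SE 0.52) and the myogenic factor MYF5 1.00 (SE 0.32). MYF5 read -0.59, -1.40 and -2.27 in Japanese Black and -0.11, -1.12 and -2.34 in Holstein, with a dye offset of -1.3. Its T1 over T3 arrays put T3 above T1 (2.27 and 2.34), but the other 2 links together put T3 below T1 (-1.99 and -1.23). MEF2C, a transcription factor of differentiated fibers, gave -1.11 (SE 0.46), and TXNIP, which is on both lists, was the other lower member. IGFBP5 read 0.83, 1.03 and -0.33 in Japanese Black and -0.50, -0.05 and 0.01 in Holstein, with opposite signs in the loops for T3 over T1 (0.84 and -0.19). MATR3, a nuclear matrix protein, gave -0.40 (SE 0.34).

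Respiratory chain genes were split by size. Of 8 cytochrome c oxidase subunits 3 were lower by size, COX5A (-0.96, SE 0.36), COX5B (-0.81, SE 0.47) and COX7B (-0.75, SE 0.37), where 9.77% of named genes were lower and 13.3% higher. COX7C stood at 0.86 (SE 0.43), but at -0.15 over its 2 elements read on all 6 arrays. Of 7 ATP synthase subunits 2 were lower by size, against the same 9.77% of named genes: ATP5F1B (-1.08, SE 0.34) and ATP5PB (-1.36 in Japanese Black and -0.65 in Holstein). The 6 complex I genes had a median of 0.01 (-0.19 to 0.18 with each array left out), with NDUFB11 (0.60, SE 0.47) higher by size and none lower. Of the 5 genes of complexes II and III and cytochrome c, UQCR11 was higher by size and none lower, around a median of -0.25. UQCR11 has no element read on all 6 arrays, and over the 4 genes with such an element the median was -0.60. Markers of other cell types were few: 4 of 18 endothelial and mural markers (median 0.29, or -0.20 without the array that stood apart, with EGFL7 and CNN1 higher by size and ACTA2 at -0.78), 3 of 20 immune markers (median 0.30, CD74 higher by size) and 0 of the blood, nerve, and skin and cartilage markers.

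For T2 over T1 the 6 highest named genes by size were SNU13 (2.65), IGFALS (2.53), RPL32 (2.30), RPS13 (2.55), CNN1 (2.19) and NFATC2IP (1.99), and the 6 lowest were VDAC1 (-1.45), PDK4 (-1.83), TOMM22 (-1.81), CMYA5 (-1.21), MYPN (-1.14) and TPI1 (-1.09). Of the 6 highest, NFATC2IP was the 1 gene with an element read on all 6 arrays, whereas all 6 lowest had one. TOMM22, a receptor for protein import into mitochondria, read -2.66, 0.34 and 1.69 in Japanese Black and -0.93, 0.52 and 1.17 in Holstein, so that T1 was the highest time. RPL32 read 2.17, -0.71 and -1.31 in Japanese Black and 2.66, -0.61 and -1.48 in Holstein, the closest match between breeds among the 6 highest (SE 0.31, limma adjusted p = 0.082).

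For T3 over T2 the highest were EPC1 (1.63), S100A10 (1.55), GNB1 (1.40), FUNDC2 (1.43), ANXA5 (1.29) and SLA (1.28), and the lowest TMED9 (-1.94), WNK1 (-2.12), DDB1 (-1.71), WDR43 (-1.51), ANGPTL4 (-1.53) and RRAGC (-1.99). EPC1, a subunit of a histone acetyltransferase complex, read 0.08, 1.77 and -1.47 in Japanese Black and -0.80, 1.86 and -0.31 in Holstein, and its 2 elements differed little (SD 0.03). GNB1, the beta subunit of G proteins, read 2.22 and 2.05 on the arrays of T3 over T2. The RAG GTPase RRAGC, which signals amino acid supply, read -1.62 and -2.32 there, with a fitted value of -1.99 (SE 0.39, limma adjusted p = 0.52). The signs of these 12 genes agree between the loops by the rule that chose them.

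**Figure D5:**
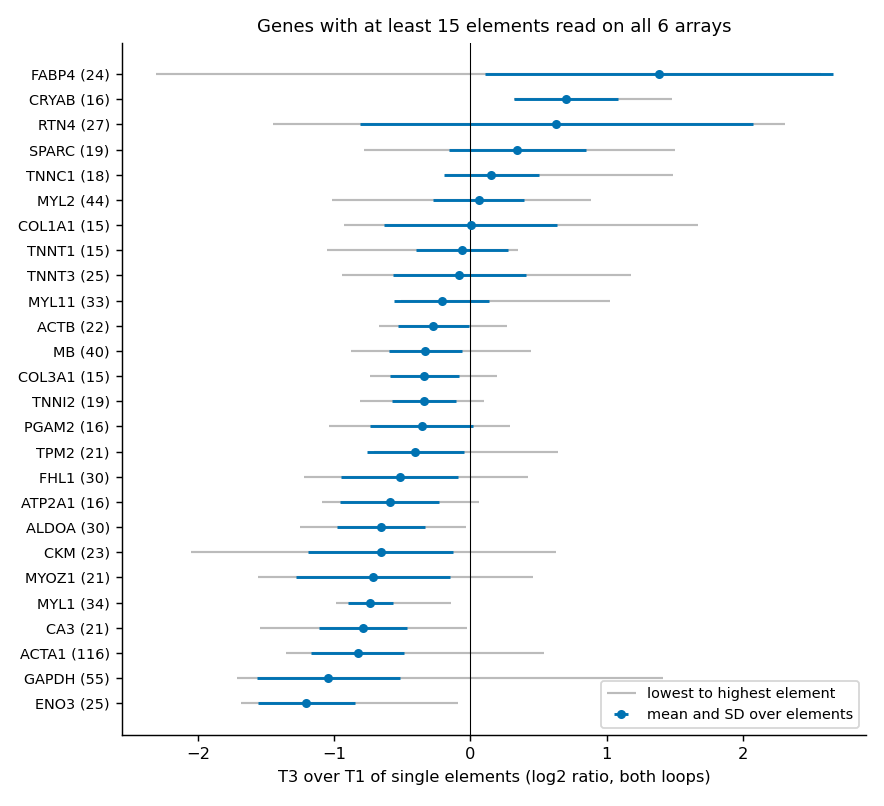
T3 over T1 (horizontal axis, log2 ratio over both loops) of single elements, for the 26 genes with at least 15 elements read on all 6 arrays: the point and bar give the mean and SD over elements, the grey line the lowest and highest element. ACTA1, GAPDH, MYL1, ALDOA and ENO3 lie left of 0 by more than 1 SD, CRYAB lies right of 0 by more than 1 SD, and FABP4 and RTN4 spread widest.

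Genes printed many times showed how far a value held across elements, which are different clones or copies on the same slides and not replicates of a condition. Of 116 ACTA1 elements read on all 6 arrays, 113 (97.4%) were below 0 for T3 over T1, with a mean of -0.83 (SD 0.34). For GAPDH 53 of 55 were below 0 (mean -1.04, SD 0.53), and for MYL1, ALDOA and ENO3 all 34, 30 and 25 were (means -0.73, -0.65 and -1.20). The 16 CRYAB elements were all above 0 (mean 0.70, SD 0.38). For FABP4 21 of 24 elements were above 0 (mean 1.38, SD 1.28), the lowest at -2.31. The 15 COL1A1 elements were split, 6 above and 9 below 0 (mean 0.00, SD 0.64), and 13 of 15 COL3A1 elements were below 0 (mean -0.34, SD 0.25), where the average over all its elements was 0.05 (SE 0.32). Long cDNA probes can bind transcripts of near-identical family members, so that values of actins, myosin light chains, enolases and fatty acid binding proteins may each include relatives.

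The 12 arrays that compare the breeds at the same time add no link between times, but they add residual degrees of freedom to the estimate of spread. A fit to all 18 arrays left the fitted T3 over T1 values as they were and called 222 features (37 higher at T3, 0.882%, and 185 lower, 4.41%), 14 of them named genes. These were FABP4, THBS2, S100A10, INO80B and YTHDF1 on the higher side (0.763% of named genes), and PFKFB3, CMYA5, PDK4, TPI1, SLC25A4, ATP2A2, LOC514457, MAP3K15 and FXYD1 on the lower side (1.37%), with adjusted p from 0.0020 (CMYA5) to 0.046 (FXYD1). For the lipogenic enzymes it called 0 of 8, with adjusted p of 0.086 for THRSP and 0.13 for ACLY. The fit to all 18 arrays gave each breed its own times and tested the mean of both breeds. Differences between the breeds in time change were thus left out of its spread, whereas the fit to the time arrays alone counts them. A call there does not show that the breeds changed alike. FABP4 was called although its time change differed by -2.40 on the breed arrays (Japanese Black minus Holstein). The breed arrays supply most of the residual degrees of freedom of that fit. It has 12 in all, where times fitted within each breed on the time arrays alone leave 1. The printed copies on the breed arrays also differed by less (median absolute difference 0.085 to 0.18 against 0.34 to 0.65). The spread of the time arrays is therefore the one used elsewhere here.

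The time change itself was also compared between breeds. T3 over T1 in Japanese Black minus Holstein passed an adjusted p of 0.05 in limma for 20 of 4194 features (0.477%), 8 more positive in Japanese Black and 12 in Holstein, with sizes from 3.96 to 6.75, and 244 features had an unadjusted p under 0.05. The fit leaves 1 residual degree of freedom, and its moderated spread was the same for all features. The 2 named genes (0.305%) were SRSF5, a splicing factor, and LOC511516. SRSF5 read -1.12 on the Japanese Black array of T1 over T3 and 6.27 on the Holstein one, and its other 4 values lay between -0.75 and 0.35, so that its difference of 5.22 (SE 1.07, adjusted p = 0.0011) rests on 1 array. The same difference measured on the 12 breed arrays was 0.44 (SE 1.07) for SRSF5 and 0.03 (SE 2.10) for LOC511516. Of the 20 features 11 had the same sign on the breed arrays and 0 passed there, and across 4171 features the 2 estimates correlated at 0.10.

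The breed arrays themselves, tested for the same difference with 8 residual degrees of freedom, passed 13 of 4171 features (0.312%), 11 of them more positive in Holstein, and 7 of 651 named genes (1.08%). The 7 were FABP4, ADIPOQ, PLIN1, RTN4, the secreted chaperone CLU, the elongation factor subunit EEF1B2 and the calcium-binding protein S100G. None of the 13 passed in the loops, where 10 had the same sign.

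For FABP4, Japanese Black minus Holstein read 2.44, 2.58, 3.00 and 2.62 on the 4 arrays at T1 and 0.26, 0.084, 0.23 and 0.46 on the 4 at T3, so that every T1 value lay above every T3 value. The time change was thus 2.40 lower in Japanese Black (-2.40, SE 0.20, limma adjusted p = 0.00051), against -0.94 (SE 1.07) in the loops. For PLIN1 the breed difference was 1.93 (SD 0.29, n = 4) at T1 and 0.34 (SD 0.16, n = 4) at T3, a change of -1.59 (SE 0.22, limma adjusted p = 0.017), while the loops gave 0.33 (SE 1.07) with the opposite sign. For ADIPOQ it was 2.52 (SD 0.97, n = 4) at T1 and 0.03 (SD 0.18, n = 4) at T3, a change of -2.49 (SE 0.35, limma adjusted p = 0.017), against -0.73 (SE 1.07) in the loops. With each of the 12 arrays left out in turn FABP4 passed in all 12 fits (largest adjusted p = 0.0048), and PLIN1 and ADIPOQ in 7 each (largest 0.090 and 0.094). With arrays scaled to one spread FABP4 had an adjusted p of 0.14, and PLIN1 and ADIPOQ of 0.18. With same-numbered arrays blocked, the limma adjusted p was 0.0024 for FABP4, 0.054 for PLIN1 and 0.064 for ADIPOQ. Without the dye term it was 0.00031, 0.017 and 0.084 in the same order.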

How the data were processed

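Two-colour cDNA arrays of cattle muscle were analysed from the value table the authors deposited, which holds 1 log2 ratio of the channels per element and array and no intensities. For these arrays the scanner, background correction and normalisation are not given in the sources used here; the values were not centred, and array signal over background and depth are unknown. Of 77 array columns 18 were used, 6 for the time course and 12 for the breed comparison; 59 columns of other experiments, and a table of another print of the array, were not used here. Values at the table limit of 16.61, the log2 of 100000, were set to missing, since such a value is only a bound. Elements with exactly 1 gene name in the platform annotation (4304 elements, 969 genes) were averaged per gene, 180 with several names were left unnamed, and the 14716 without a name were averaged over the 2 neighbouring copies of a clone. Of the named elements 4286 matched the reference gene table and 18 kept the name of the annotation.

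After subtraction of the median of each array, the features measured on all 6 arrays were fitted with limma 3.58.1 (lmFit and eBayes, R 4.3.3, statmod 1.5.0) with terms for T2 and T3 against T1 and an intercept for the dye. This leaves 3 residual degrees of freedom, and p-values were adjusted by Benjamini-Hochberg over all features. The methods of the study describe a mixed model on intensities, which this table does not hold. The value of 1 breed comes from its own loop, in which the dye cancels, and has no p. The breed by time test fitted the times within each breed, and was repeated on the 12 breed arrays. The fit to all 18 arrays also fitted the times within each breed. The scripts were tested on simulated data. Alternatives varied the dye term, centring, scaling, missing values, values at the limit, averaging, array weights, the empirical Bayes step, the arrays fitted and each array in turn.

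The members and the 31 gene lists were chosen with earlier results of these data known. Genes were named as the 12 highest and 12 lowest for T3 over T1 and the 6 and 6 of each step, by adjusted p or else by size ranked on the smaller breed value, with the named genes past the breed by time test, 3 genes per list by smallest p, and 13 genes of interest, of which SCD and MYH7 have no value under their name. Named outside that rule, after their values were seen, were ACTA1, ACTN2, ADIPOQ, ALDOA, CAVIN1, CFD, CLU, COL1A2, COX5B, CSRP3, CTSK, DES, DGAT1, DGAT2, ECM2, EEF1B2, ENO3, FN1, FXYD1, GAPDH, IDH1, IGF1, LDHB, LEP, LUM, MEF2C, MMP14, MYOT, PKM, RTN4, S100G, SLC2A4, SPARC, SREBF1, SRL, TNNT1 and YTHDF1.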

Additional observations from a re-analysis of the deposited data

Results flagged for a closer look

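The time change from T1 to T3 differed between Japanese Black and Holstein by the test of the difference in 20 features. The 2 named genes among them were SRSF5, with a T3 over T1 of 0.69 in Japanese Black and a difference of 5.22 on the log2 scale (Japanese Black minus Holstein), and LOC511516, with 1.98 in Japanese Black and a difference of 4.34. The part of single arrays in the other 18 differences was not tested, and each fit of the difference had 1 residual degree of freedom.

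On the 12 breed arrays 13 features differed in the same way by the test of the difference. Japanese Black minus Holstein was -2.40 for FABP4, -2.49 for ADIPOQ, -1.59 for PLIN1, -1.71 for RTN4, -2.83 for CLU, -2.96 for EEF1B2 and -2.57 for S100G. In the loops PLIN1, EEF1B2 and S100G had the opposite sign (0.33, 1.49 and 0.49), each with an SE of 1.07.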

How the results depend on the processing

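The counts of 0 features for the 3 comparisons of times, and for any change, were also 0 with each array left out in turn. They moved with all 18 arrays (222 for T3 over T1, 327 for T2 over T1, 14 for T3 over T2, 340 for any change), with values at the limit kept (4 for T2 over T1, 5 for any change) and with single elements (3 for T2 over T1). The fit to all 18 arrays also left differences between the breeds in time change out of its spread. The 20 breed by time calls became 0 without centring and with values at the limit kept, 13 with arrays scaled, 112 with values on at least 5 of 6 arrays, 57 with single elements, 31 with robust empirical Bayes and 11 with all 18 arrays. For that test array weights could not be estimated, and leaving out an array leaves no residual degrees of freedom, so neither was run. The 13 calls of the breed arrays, with alternatives chosen after seeing the data, became 1 with arrays scaled and 4 to 40 with each array left out: 4 without replicate 1 and 40 without replicate 4 at T1, and 5, 5 and 7 without replicates 1, 3 and 4 at T3.

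List medians for T3 over T1 kept their sign in the 6 lists named here. Without centring they were -0.17 for fast fiber, -0.10 for Z-disc, -0.26 for sarcoplasmic reticulum, -0.26 for glycolytic, 1.39 for lipogenic and 0.77 for adipocyte genes. Scaled arrays gave -0.39 for sarcoplasmic reticulum and 0.84 for lipogenic genes. Values at the limit kept gave -0.41 for sarcoplasmic reticulum and 0.72 for adipocyte genes, and at least 5 of 6 arrays gave -0.26 for sarcoplasmic reticulum. The Japanese Black loop alone gave -0.57 for Z-disc, -0.67 for sarcoplasmic reticulum and -0.72 for glycolytic genes, and the Holstein loop -0.72 for sarcoplasmic reticulum. With each array left out in turn, fast fiber ran from -0.67 to -0.29, sarcoplasmic reticulum from -0.84 to -0.49 and adipocyte genes from 0.28 to 0.77. Elements with values on all 6 arrays, an alternative chosen after seeing the data, gave -0.72 for fast fiber, -0.55 for Z-disc, -0.77 for sarcoplasmic reticulum, -0.97 for glycolytic and 0.15 for adipocyte genes.

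Of 145 values of single genes, 130 kept their sign under every alternative run. The exceptions for T3 over T1 were COL3A1 at -0.024 with arrays scaled, SLC2A4 at 0.26 and LOC511516 at 0.083 without centring, and ANKRD1 at 0.18 and LEP at -1.04 with values at the limit kept. In the Japanese Black loop alone they were COL3A1 at -0.12, LOC511516 at 1.98, PKM at 0.19, RTN4 at -0.12, SLC2A4 at 0.25 and SRSF5 at 0.69, and in the Holstein loop DGAT2 at -0.72 and IGFBP5 at -0.19. Over complete elements they were COL3A1 at -0.34, FABP5 at 0.12, LEP at -0.085, COX7C at -0.15 and SLC2A4 at 0.43. With each array left out in turn, COL3A1 ran from -0.11 to 0.21, DGAT2 from -0.17 to 0.94, LOC511516 from -1.69 to 1.32, SLC2A4 from -0.17 to 0.15 and SRSF5 from -4.38 to 0.54. COL4A1 for T2 over T1 was 0.63 in the Holstein loop and -1.65 to 0.44 with each array left out. COL1A2 for T2 over T1 was -0.056 with values at the limit kept. GAPDH for T3 over T2 was -0.10 without centring, -0.12 in the Holstein loop and -0.085 to 0.17 with each array left out. The cause was not tested.

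For the time arrays, no paired analysis was possible because the labels give them no shared replicate number, and the breed is itself the replicate. The breed arrays share numbers across times, but same-numbered arrays did not all deviate together (r from -0.11 to 0.77, against -0.69 to 0.62 for arrays of different numbers). A replicate block gave 6 calls in place of 13, with 3 named genes among them. FABP4 then had a limma adjusted p of 0.0024, while PLIN1 (0.054) and ADIPOQ (0.064) no longer passed. The number of arrays limits the precision.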
